A study of Mus musculus with 6 samples.

Results

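Growth factors, their receptors and the TGF-beta and BMP pathway were followed in perfused mouse hearts, as 96 of the 8969 protein-coding genes in the deposited table. The members were taken by gene name, and the name pattern uses no measured value, although it was proposed with earlier results of these data known. They are genes whose symbols begin like those of the TGF-beta, BMP, GDF, inhibin and activin ligands, their receptors, SMAD proteins and latent binding proteins, and of the FGF, VEGF, PDGF, IGF, EGF, neuregulin, angiopoietin, Wnt, Frizzled and Notch families. They fall into 53 ligands, 23 receptors, 4 SMAD transducers, 7 binding proteins and 9 other genes that carry such a name without being a secreted ligand or its receptor. Each level is the sum of the FPKM of a gene's listed transcripts, where FPKM is fragments scaled by the length of the transcript and the total of the library. The study asked how the RNA of the heart differs after ischaemia and reperfusion of the kind that accompanies cardiopulmonary bypass.

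The I/R hearts (ischaemia and reperfusion) were male mouse hearts on a Langendorff apparatus, which perfuses the coronary vessels of an isolated heart. Tomas cardioplegia stopped them from beating for 30 min before 1 h of reperfusion. The Sham hearts were male mouse hearts on the same apparatus whose beating was not stopped. Each group held 3 hearts, numbered as biological replicates 1 to 3. Strain, age, the perfusion time of the Sham hearts and whether each replicate was 1 animal were not stated in the labels. If a replicate was not a separate animal, the p-values measure only the spread between these libraries. An isolated heart keeps its resident cells and receives no blood cells from the circulation.

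Ligands of the TGF-beta family bind a pair of type I and type II serine/threonine kinase receptors, which phosphorylate receptor SMADs. These join SMAD4 and enter the nucleus, and SMAD7 is an inhibitor that the pathway induces in feedback. Most growth factors of the EGF, FGF, PDGF, VEGF, angiopoietin and IGF families act through receptor tyrosine kinases, Wnt ligands through Frizzled receptors, and Delta-like and Jagged ligands through Notch receptors on a neighbouring cell. In heart these pathways are known for fibroblast activation, vessel growth and the exchange of signals between endothelium and cardiomyocytes.

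2 promoters are shown, of the 1 ligand and the 1 receptor at an unadjusted p under 0.05 for which a window was at hand, although Areg passed the filter through the I/R hearts alone. Areg encodes amphiregulin, a ligand of the EGF receptor, and Fzd1 encodes Frizzled 1, a receptor for Wnt ligands. Each sequence is the 250 bases before the gene's start in RefSeq on GRCm38.p6, 5′ to 3′ on the gene's own strand. Capitals mark matches to the motifs searched. The Areg sequence is chr5:91139349-91139598 on the plus strand, directly before the start that the table gives. The Fzd1 sequence is chr5:4758217-4758466 on the minus strand, and the RefSeq start lies 181 bases upstream of the start in the table.
Areg: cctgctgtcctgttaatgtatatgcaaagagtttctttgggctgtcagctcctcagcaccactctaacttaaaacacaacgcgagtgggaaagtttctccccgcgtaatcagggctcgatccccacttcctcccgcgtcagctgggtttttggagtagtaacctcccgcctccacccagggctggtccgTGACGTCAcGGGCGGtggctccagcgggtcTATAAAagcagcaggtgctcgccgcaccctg
Fzd1: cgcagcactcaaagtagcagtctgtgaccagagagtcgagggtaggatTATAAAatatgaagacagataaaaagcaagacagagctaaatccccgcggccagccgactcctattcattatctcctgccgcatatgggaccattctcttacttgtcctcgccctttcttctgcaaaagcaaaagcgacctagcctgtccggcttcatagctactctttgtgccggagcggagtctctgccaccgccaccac
The search used both strands and 4 motifs, which can overlap one another. TATAAA is the core of the box near which transcription starts, TGACGTCA is the cyclic AMP response element, TGANTCA is the site of AP-1, and GGGCGG is the box bound by SP1. In the Areg sequence TGACGTCA lay 61 to 54 bases before the start, GGGCGG 52 to 47 bases before it and TATAAA 31 to 26 bases before it. In the Fzd1 sequence the only match was TATAAA, 202 to 197 bases before the start. Among the 32851 promoter windows of this length in the RefSeq table, 12.4% held TATAAA, 1.55% held TGACGTCA, 6.75% held TGANTCA and 32.7% held GGGCGG. Windows were at hand for 70 of the 96 members, 40 of them among the members tested. Of these 40, TATAAA was in 7, TGACGTCA in 1, TGANTCA in 2 and GGGCGG in 26. A match of letters is a description and no evidence of binding.

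Library totals recovered for protein-coding rows were 7690040, 8896834 and 7827563 reads in I/R replicates 1, 2 and 3, and 9902397, 9643195 and 7233171 reads in Sham replicates 1, 2 and 3. The listed protein-coding rows held 36.8% to 39.9% of these reads. Of 12 ventricular cardiomyocyte markers tested, 9 had a negative log2 difference, with a median of -0.27. At an unadjusted p under 0.05 by limma, 0 were higher and 2 lower, Pln (-0.77 ± 0.17) and Tnnt2 (-0.47 ± 0.13). Fabp3, most of the summed FPKM of these markers, differed by 0.02. All 13 markers listed summed to 11644 to 12396 FPKM in I/R hearts and 11759 to 12663 FPKM in Sham hearts. Without Fabp3 the sums were 2419, 2554 and 2637 FPKM in I/R hearts and 2792, 3016 and 2733 FPKM in Sham hearts. These were lower in every I/R heart than in every Sham heart. Most of them was Hspb7, with 1841.8, 1952.3 and 2096.6 FPKM in I/R hearts and 2032.4, 2335.4 and 2044.5 FPKM in Sham hearts, groups that overlap. The summed FPKM of 11 fibroblast markers was 482 to 525 in I/R hearts and 369 to 456 in Sham hearts, with a median of 0.18 over the 9 tested, and that of 6 macrophage markers was 1145 to 1239 in I/R hearts and 922 to 1104 in Sham hearts, with a median of 0.22. Neither sum overlapped between groups. At an unadjusted p under 0.05 by limma, 2 fibroblast markers were higher and 0 lower, Col1a1 (0.51 ± 0.14) and Col3a1 (0.47 ± 0.19). Of the macrophage markers 1 was higher and 0 lower, Cd14 (0.83 ± 0.23). Over all protein-coding genes tested, 3.43% were higher and 1.67% lower at that p, and 54.9% had a positive log2 difference. The sum of 7 endothelial markers, most of it Kdr, was 157 to 179 FPKM in I/R hearts and 148 to 159 FPKM in Sham hearts. Without Kdr it was 33.61 to 47.45 FPKM in I/R hearts and 39.85 to 56.24 FPKM in Sham hearts. The 6 tested had a median of -0.02, with 0 higher and 1 lower, Tie1, at an unadjusted p under 0.05 by limma. Of 5 epicardial markers, Aldh1a2 alone passed the filter, with 11.3, 5.76 and 7.17 FPKM in I/R hearts and 4.24, 5.36 and 4.15 FPKM in Sham hearts. Its log2 difference was 0.66 ± 0.26 (limma, unadjusted p = 0.0378). Without Aldh1a2 the epicardial sums were 0.232 to 1.63 FPKM in I/R hearts and 0.557 to 1.51 FPKM in Sham hearts.

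I/R replicate 2 stood apart in the atrial cardiomyocyte markers Myl7 and Sln, but not in Nppa, Myl4 or Nr2f2. Nppa and Nr2f2 were highest in I/R replicate 3 (810.8 and 2.51 FPKM), and Myl4 in Sham replicate 2 (2.13 FPKM). Myl7 had 0.220, 326.0 and 10.4 FPKM in I/R replicates 1, 2 and 3, and 0.342, 43.2 and 115.1 FPKM in Sham replicates 1, 2 and 3. Sln, another atrial gene, had 0, 507 and 7 reads in I/R hearts and 0, 54 and 116 reads in Sham hearts. All 5 atrial markers summed to 468, 956 and 825 FPKM in I/R hearts and 333, 724 and 598 FPKM in Sham hearts. Of 5 lung markers the only 1 listed, Scgb1a1, did not exceed 0.581 FPKM, and no marker listed was at 0 in all 6 hearts. In whole tissue, fewer cells of a type and less RNA per cell cannot be told apart, and the part of these markers in the results was not tested.

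**Figure D1:**
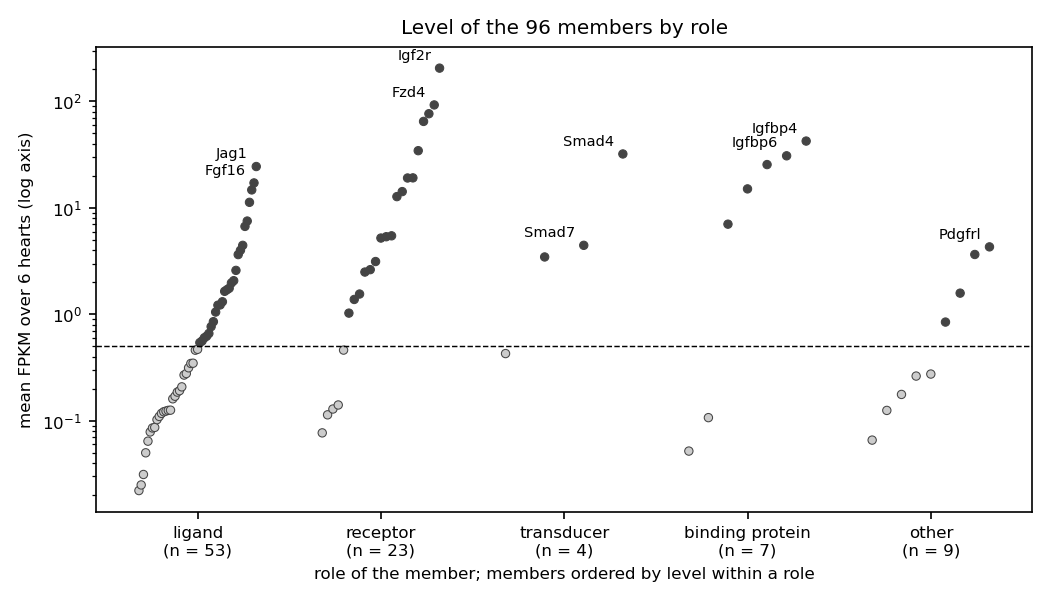
Mean FPKM over the 6 hearts (log axis) of each of the 96 members, ordered by level within its role. The dashed line is the filter of 0.5 FPKM, above which 56 filled points lie, and Igf2r is highest at a mean of 214.6 FPKM in I/R hearts and 196.3 FPKM in Sham hearts.

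Levels of the members ran from a single read over the 6 hearts (Wnt7b) to a mean of 214.6 FPKM in I/R hearts and 196.3 FPKM in Sham hearts (Igf2r). Testing required that a member reach 0.5 FPKM on average in the 6 hearts, and 56 members passed it: 26 ligands, 18 receptors, 3 transducers, 5 binding proteins and 4 others. The other 40 members had means of at most 0.469 FPKM and are given as reads only. A level covers the listed transcripts alone, and listed rows held only part of the protein-coding reads, as given above. A low level may therefore leave out transcripts of the gene that are not listed. Among receptors Igf2r, which carries IGF2 and mannose-6-phosphate proteins to lysosomes, had 222.0, 221.6 and 200.3 FPKM in I/R hearts and 189.7, 188.6 and 210.6 FPKM in Sham hearts. The antisense lncRNA Airn overlaps it, with 8207 reads beside 88672 reads of Igf2r. It was followed by Fzd4, a Frizzled receptor known for vessel development, by Notch3, the Notch receptor of smooth muscle and pericytes, and by Notch1. Fzd4 averaged 85.5 ± 14.0 FPKM in I/R hearts and 99.8 ± 14.1 FPKM in Sham hearts (SD, n = 3 each). Notch3 averaged 78.1 ± 6.75 FPKM in I/R hearts and 75.2 ± 7.80 FPKM in Sham hearts. Fzd4 and Notch3 overlapped in I/R hearts, while in Sham hearts every Fzd4 value was above every Notch3 value. Notch1 averaged 63.8 ± 3.39 FPKM in I/R hearts and 66.0 ± 7.70 FPKM in Sham hearts. Among the ligands listed, the most abundant were lower than these receptors. This ranking leaves out ligands that had no row. The Notch ligand Jag1 led it at 25.3 ± 3.26 FPKM in I/R hearts and 23.6 ± 3.94 FPKM in Sham hearts. Fgf16, an FGF of heart muscle, had 17.6 ± 1.505 FPKM in I/R hearts and 16.7 ± 2.29 FPKM in Sham hearts, and Tgfb3 14.8 ± 0.896 FPKM in I/R hearts and 14.7 ± 3.02 FPKM in Sham hearts. None of these 7 genes reached an unadjusted p under 0.05 between groups, and their log2 differences lay between -0.22 (Fzd4) and 0.13 (Igf2r).

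No feature was called between I/R and Sham hearts by limma on log2(FPKM + 1) with Benjamini-Hochberg adjustment over all 12114 features. The smallest adjusted p was 0.385 over all features and 0.386 among the members, for Areg, and 1023 features had an unadjusted p under 0.05. With limma voom on recovered reads of the 5041 protein-coding genes tested, 0 were called as well, with a smallest adjusted p of 0.108 and 432 genes at an unadjusted p under 0.05. At an unadjusted p under 0.05, 3 of the 56 members tested were higher in I/R hearts (5.36%), Areg, Fzd1 and Bmp2, against 3.43% of all protein-coding genes tested. 1 member, Fgf13, was lower (1.79%), against 1.67% of all. In either direction 5.1% of all protein-coding genes tested had such a p. The members' shares are near the background and are no result about the members as a group. The 3 I/R hearts lay above the 3 Sham hearts in 6 members (10.7%, against 8.83% of all), which were Areg, Fzd1, Fzd2, Bmp2, Dll4 and Gdf6, and below them in 2 members (3.57%, against 5.12% of all), Acvr1b and Fgf13. The median log2 difference of the 56 members was 0.08, with 35 positive, against 0.02 and 54.9% positive over all protein-coding genes tested.

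**Figure D2:**
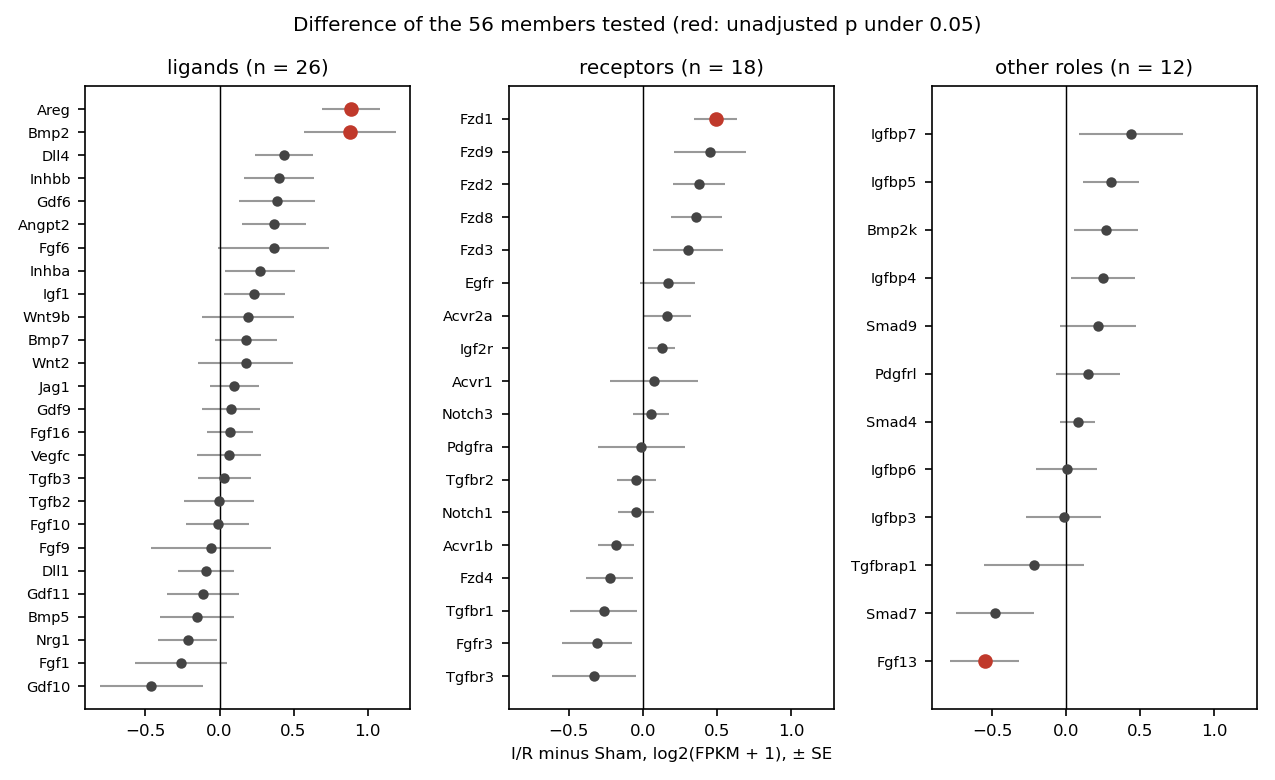
Difference of I/R minus Sham hearts on the log2(FPKM + 1) scale, with its SE, for the 56 members tested, in panels of ligands, receptors and other roles. Points left of 0 are lower in I/R hearts, the 4 larger points have an unadjusted p under 0.05, and Areg (0.89) and Bmp2 (0.88) lie farthest to the right.

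2 ligands stood farthest from 0, Areg of the EGF family and Bmp2, a BMP that acts through SMAD1, SMAD5 and SMAD9. Areg (ENSMUSG00000029378, chr5:91139599-91148432, plus strand) had 1.28, 1.02 and 1.16 FPKM in I/R replicates 1, 2 and 3, and 0.0831, 0.0854 and 0.341 FPKM in Sham replicates 1, 2 and 3. Behind these stood 12, 11 and 11 reads in I/R hearts and 1, 1 and 3 reads in Sham hearts. All 3 I/R hearts were above all Sham hearts, at a low count. The log2 difference was 0.89 ± 0.20 (SE, limma, unadjusted p = 0.0029, adjusted p = 0.386), a scale that understates the change of a low gene because 1 is added to each FPKM. On the reads, limma voom gave 2.76. Its p has little weight, since Areg passed the filter of 0.5 FPKM through the I/R hearts alone, with a mean of 1.15 ± 0.133 FPKM in I/R hearts and 0.170 ± 0.148 FPKM in Sham hearts (SD, n = 3 each). Ereg, which encodes epiregulin, another EGF receptor ligand of the same chromosome, had 6, 26 and 19 reads in I/R hearts and 8, 9 and 5 reads in Sham hearts, overlapped between groups and was below the filter. The receptor Egfr had 6.90, 5.53 and 4.83 FPKM in I/R hearts and 5.33, 4.81 and 4.77 FPKM in Sham hearts, groups that overlap, at a log2 difference of 0.17 ± 0.19.

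Bmp2 (chr2:133552159-133562885) had 3.77, 9.07 and 5.61 FPKM in I/R hearts and 2.24, 3.50 and 2.49 FPKM in Sham hearts. The I/R hearts lay above the Sham hearts, with I/R replicate 2 far above the other two. That heart also had the most reads of the atrial genes Myl7 and Sln, but not of Nppa, Myl4 or Nr2f2. The part of atrial genes in the Bmp2 value was not tested. The log2 difference was 0.88 ± 0.31 (limma, unadjusted p = 0.0253, adjusted p = 0.514) and 0.60 without I/R replicate 2. The unadjusted p was no longer under 0.05 without that heart, I/R replicate 3, Sham replicate 1 or Sham replicate 3. Of the other BMP and GDF ligands tested, Gdf6 had 1.22, 1.02 and 2.42 FPKM in I/R hearts and 0.801, 0.881 and 1.02 FPKM in Sham hearts. The groups met at about 1.02 FPKM without overlapping, and the log2 difference was 0.39 ± 0.25. Bmp7 (0.18 ± 0.21), Bmp5 (-0.15 ± 0.25), Gdf9 (0.08 ± 0.20), Gdf11 (-0.11 ± 0.24) and Gdf10 (-0.46 ± 0.35) overlapped between groups. Bmp4 had 2, 0 and 1 reads in I/R hearts and 0 reads in each Sham heart, which is at the floor of 3 counts.

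The activin subunits and the TGF-beta isoforms did not reach an unadjusted p under 0.05. Inhbb, the subunit of activin B, had 5.75, 5.15 and 3.27 FPKM in I/R hearts and 3.80, 2.998 and 3.02 FPKM in Sham hearts, with I/R replicate 3 inside the Sham range, at a log2 difference of 0.40 ± 0.23. Inhba, the subunit of activin A, had 1.93, 1.79 and 3.06 FPKM in I/R hearts and 1.45, 2.14 and 1.45 FPKM in Sham hearts, groups that overlap, at 0.27 ± 0.24. Tgfb3 and Tgfb2, which encode the TGF-beta 3 and TGF-beta 2 isoforms, differed by 0.03 ± 0.18 and by -0.0021 ± 0.23, and the sign of both turned with another scaling or pseudocount, to -0.0024 for Tgfb3 and 0.031 for Tgfb2. Of the 24 genes named in any case, 8 had no row among those used here and were not analysed. These were Tgfb1, Bmp6, Gdf15, Hbegf, Vegfa, Fgf2, Smad6 and Bmpr2.

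Among ligands of the endothelium, Dll4, the Notch ligand of arterial and sprouting endothelial cells, had 6.52, 8.67 and 8.35 FPKM in I/R hearts and 6.47, 5.65 and 4.54 FPKM in Sham hearts. I/R replicate 1 lay just above Sham replicate 1, so the groups did not overlap. The log2 difference was 0.44 ± 0.20 (limma, unadjusted p = 0.0639). Gm14207, an antisense lncRNA that overlaps Dll4 with 1649 reads beside the 1289 reads of Dll4, differed by 0.38 ± 0.26, and without a stated strand setting the reads of such a pair cannot be told apart. Angpt2, which modulates TIE2 on endothelial cells, had 2.96, 2.71 and 1.76 FPKM in I/R hearts and 1.79, 1.69 and 1.51 FPKM in Sham hearts, where I/R replicate 3 was inside the Sham range, at 0.37 ± 0.22. Vegfc, which drives lymphatic vessel growth, differed by 0.06 ± 0.22. Nrg1, the neuregulin that endothelium presents to cardiomyocyte ERBB receptors, averaged 0.498 ± 0.0634 FPKM in I/R hearts and 0.749 ± 0.237 FPKM in Sham hearts (-0.22 ± 0.20), and the groups overlapped.

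**Figure D3:**
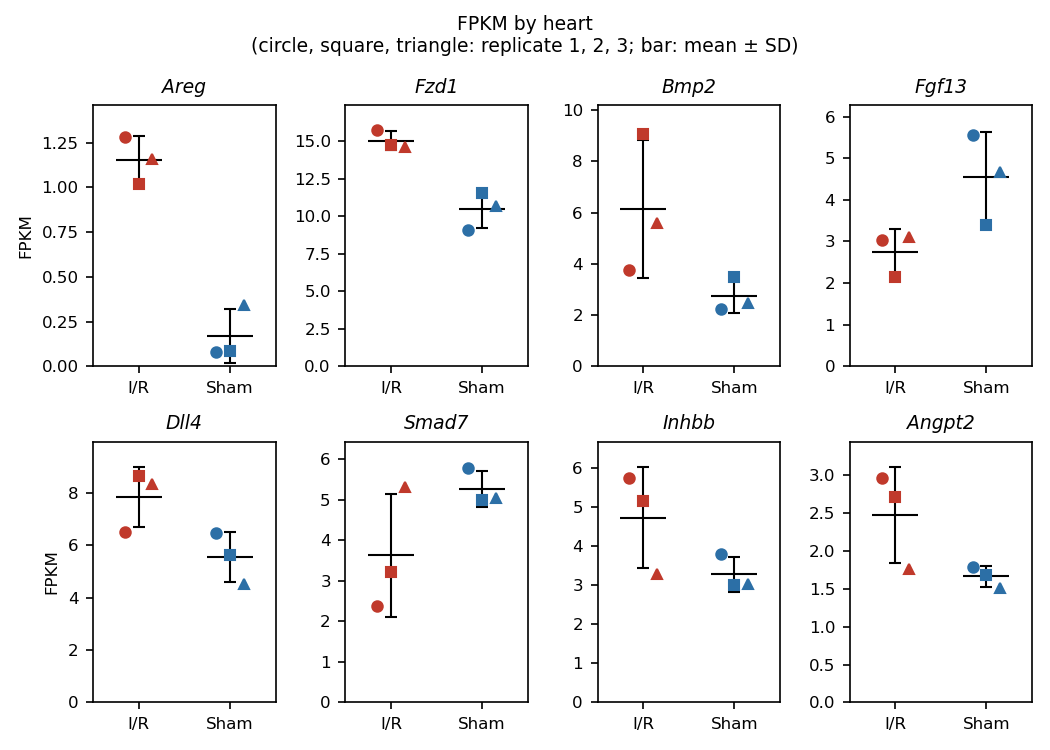
FPKM in each heart of 8 members, I/R left of Sham, with the mean and SD of each group as bars and replicates 1, 2 and 3 as circle, square and triangle. The I/R hearts are apart from the Sham hearts in Areg, Fzd1, Bmp2, Fgf13 and Dll4, while I/R replicate 3 lies within the Sham range in Smad7, Inhbb and Angpt2.

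The remaining ligands overlapped between groups. Igf1, which acts on cardiomyocyte growth and survival, had 7.78, 6.44 and 10.6 FPKM in I/R hearts and 6.99, 6.88 and 6.41 FPKM in Sham hearts (0.23 ± 0.21), so that I/R replicate 2 was within the Sham range. Fgf1 differed by -0.26 ± 0.31, and 86.9% of its FPKM came from a listed transcript of 346 bases with 178 of its 397 reads. Fgf6, Fgf9, Fgf10, Wnt2, Wnt9b, Dll1 and Jag1 lay between -0.09 (Dll1) and 0.37 (Fgf6), none at an unadjusted p under 0.05. Of 27 ligands below the filter, Angpt4 (32 reads over the I/R hearts, 22 over the Sham hearts) and Gdf3 (13 reads over the I/R hearts, 5 over the Sham hearts) had I/R hearts above Sham hearts in FPKM, and the other 25 overlapped. The 26 ligands tested had a median log2 difference of 0.09.

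Of 8 Frizzled receptors listed, 6 were tested, and 5 had a positive log2 difference, with a median of 0.37. Fzd1 (chr5:4753839-4758035, minus strand) had 15.8, 14.8 and 14.6 FPKM in I/R hearts and 9.12, 11.6 and 10.7 FPKM in Sham hearts. The I/R hearts were close together and all above the Sham hearts, at 509, 551 and 481 reads in I/R hearts and 379, 468 and 325 reads in Sham hearts. The log2 difference was 0.49 ± 0.15 (limma, unadjusted p = 0.0131, adjusted p = 0.468), and the unadjusted p was at most 0.0434 with any 1 heart left out. Fzd2 had 6.60, 5.95 and 5.48 FPKM in I/R hearts and 3.97, 4.98 and 4.27 FPKM in Sham hearts. These groups did not overlap either, at 0.38 ± 0.18 (limma, unadjusted p = 0.0705). Fzd8 had 17.6, 23.5 and 23.9 FPKM in I/R hearts and 17.96, 17.6 and 14.2 FPKM in Sham hearts, with I/R replicate 1 inside the Sham range, at 0.36 ± 0.17. Fzd9 (0.45 ± 0.24) and Fzd3 (0.31 ± 0.23) overlapped too. The most abundant of the family went the other way, since Fzd4 had 79.0, 76.0 and 101.6 FPKM in I/R hearts and 85.9, 99.5 and 114.1 FPKM in Sham hearts, at -0.22 ± 0.16, in overlapping groups. Below the filter, Fzd7 had 19 reads over the I/R hearts and 8 over the Sham hearts, and Fzd10 had 8 over the I/R hearts and 5 over the Sham hearts.

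Fzd1, Fzd2, Fzd8 and Fzd9 are each listed as 1 transcript as long as its gene, as in genes without introns. Among the 303 protein-coding genes tested that share this, the I/R hearts lay above the Sham hearts in 17.2% and 7.92% were higher at an unadjusted p under 0.05. Of them 0.33% were lower at that p, and 65% had a positive log2 difference. The part of this in the Frizzled values was not tested. On recovered reads, limma voom put 6 of the 56 members tested at an unadjusted p under 0.05, all of them higher. They were Fzd1, Fzd2, Fzd8, Areg, Bmp2 and Dll4, of which Areg passed the filter through the I/R hearts alone. Over all protein-coding genes tested, that fit put 6.11% higher and 2.46% lower.

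**Figure D4:**
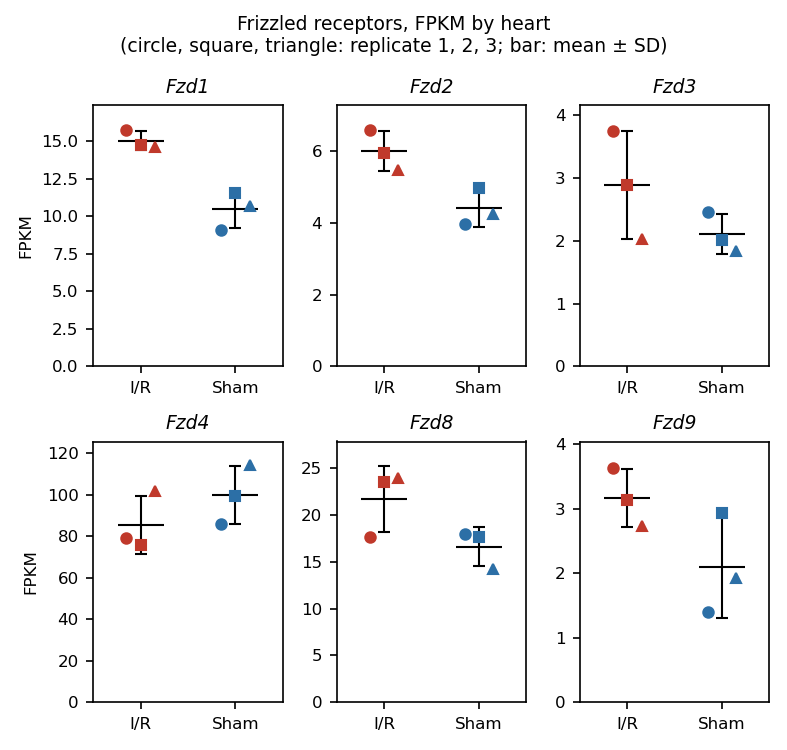
FPKM in each heart of the 6 Frizzled receptors tested, I/R left of Sham, with the mean and SD of each group as bars and replicates 1, 2 and 3 as circle, square and triangle. Fzd1 and Fzd2 have all I/R hearts above all Sham hearts, and Fzd4 has the higher mean in Sham hearts.

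The 3 TGF-beta receptors all had negative log2 differences without reaching an unadjusted p under 0.05. Tgfbr1, the type I receptor, had 0.835, 0.984 and 1.72 FPKM in I/R hearts and 1.36, 1.70 and 1.70 FPKM in Sham hearts, with I/R replicate 3 the highest of all 6, at -0.26 ± 0.23. Tgfbr2, the type II receptor, differed by -0.04 ± 0.13. Tgfbr3, the co-receptor betaglycan, differed by -0.33 ± 0.28. Gm43422, a lncRNA listed on the strand of Tgfbr3 and overlapping it, had 4844 reads beside the 108 reads of Tgfbr3. Gm43422 differed by -0.32 ± 0.12 (limma, unadjusted p = 0.0347, adjusted p = 0.559). Gm42900 (915 reads, -0.03 ± 0.32) and Gm43423 (262 reads, -0.56 ± 0.41) overlap Tgfbr3 on that strand too. The part of these lncRNAs in the Tgfbr3 value was not tested. Of the activin and BMP receptors, Acvr1b, a type I receptor for activin, had 30.6, 32.3 and 33.7 FPKM in I/R hearts and 34.5, 34.7 and 41.1 FPKM in Sham hearts. All I/R hearts were below all Sham hearts, at -0.18 ± 0.12 (limma, unadjusted p = 0.177). Acvr2a, a type II receptor, differed by 0.16 ± 0.16 and Acvr1, a type I receptor for BMPs, by 0.07 ± 0.30, both in overlapping groups. Pdgfra, the PDGF receptor of fibroblasts, differed by -0.01 ± 0.29, and Fgfr3 by -0.31 ± 0.23. The 53 reads of Fgfr3 lay on 1 listed transcript of 650 bases, and the antisense lncRNA G630022F23Rik overlaps it with 711 reads. Below the filter, Fgfrl1 had 0 reads in each I/R heart and 1 read in each Sham heart, at the floor in both groups, and Pdgfrb had 52 reads over the I/R hearts and 75 over the Sham hearts. The 18 receptors tested had a median log2 difference of 0.06, with 10 positive.

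SMAD transducers were measured in 4 members. Smad4, the partner of all receptor SMADs, had 31.1, 32.8 and 35.0 FPKM in I/R hearts and 29.3, 33.5 and 31.0 FPKM in Sham hearts, groups that overlap, at 0.08 ± 0.12. Smad9, a receptor SMAD of BMP signalling, differed by 0.22 ± 0.26. Smad7, the inhibitory SMAD, had 2.37, 3.22 and 5.32 FPKM in I/R hearts and 5.78, 4.99 and 5.03 FPKM in Sham hearts. I/R replicates 1 and 2 lay below every Sham heart and I/R replicate 3 inside the Sham range, at -0.48 ± 0.26 (limma, unadjusted p = 0.11) and at -0.73 without I/R replicate 3, when the unadjusted p was under 0.05. Its 177 reads lay on 1 listed transcript of 769 bases. Smad2, a receptor SMAD of TGF-beta, was below the filter on 1 listed transcript. It had 27 reads over the I/R hearts and 24 over the Sham hearts.

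The IGF binding proteins, which hold IGF in the extracellular space, supplied the 5 binding proteins tested, and 4 had a positive log2 difference (3 under median-of-ratios scaling, where Igfbp6 was at -0.03). Igfbp4 averaged 45.9 ± 7.64 FPKM in I/R hearts and 39.0 ± 10.4 FPKM in Sham hearts (SD, n = 3 each), at 0.25 ± 0.22. Igfbp6 (0.0026 ± 0.20) and Igfbp3 (-0.02 ± 0.25) were near 0, and Igfbp5 (0.30 ± 0.19) and Igfbp7 (0.44 ± 0.35) overlapped between groups. The antisense lncRNA Gm34648 overlaps Igfbp7, with 948 reads beside the 436 reads of Igfbp7. The latent TGF-beta binding protein Ltbp4 was below the filter at 10 reads over the I/R hearts and 17 over the Sham hearts.

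Among the 9 other genes, Fgf13 was the 1 member lower at an unadjusted p under 0.05. Fgf13 encodes an intracellular protein that binds voltage-gated sodium channels. It had 3.03, 2.14 and 3.10 FPKM in I/R hearts and 5.56, 3.40 and 4.67 FPKM in Sham hearts. Every I/R heart was below every Sham heart, with 29, 28 and 37 reads in I/R hearts and 58, 45 and 41 reads in Sham hearts. The log2 difference was -0.55 ± 0.23 (limma, unadjusted p = 0.049, adjusted p = 0.591). Among the fits that leave out 1 heart, p was under 0.05 only without Sham replicate 2, and it was not with the most abundant transcript, with recovered reads, with no filter or with a filter of 2 FPKM. Of its FPKM, 60.7% came from a transcript of 617 bases with 71 reads. Pdgfrl, a PDGF receptor-like protein, differed by 0.15 ± 0.22, and Bmp2k, a kinase named for its induction by BMP2, by 0.27 ± 0.22, both in overlapping groups. Tgfbrap1, a protein that associates with TGF-beta receptors, differed by -0.22 ± 0.34. The 5 others below the filter, Fgf12, Fgf14, Fgfr1op, Igf2bp3 and Igfbpl1, had 4 to 23 reads over the I/R hearts and 4 to 24 over the Sham hearts.

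Regulators and targets of these pathways were read from 3 lists. Of 30 modulators and targets of TGF-beta and BMP signalling, 17 were listed and 13 tested, with a median log2 difference of 0.30, 2 higher and 0 lower at an unadjusted p under 0.05, and 0 called. Bambi, a pseudoreceptor that inhibits TGF-beta signalling, had 11.2, 16.6 and 13.1 FPKM in I/R hearts and 8.52, 9.49 and 9.30 FPKM in Sham hearts. The I/R hearts were all above the Sham hearts, at 0.52 ± 0.18 (limma, unadjusted p = 0.0232, adjusted p = 0.506). Cdkn1a, the cell cycle inhibitor p21 and a target of TGF-beta and of p53, had 14.1, 23.3 and 20.2 FPKM in I/R hearts and 8.11, 14.8 and 10.5 FPKM in Sham hearts. Here I/R replicate 1 lay under Sham replicate 2, at 0.74 ± 0.27 (limma, unadjusted p = 0.0274, adjusted p = 0.526).

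Of 40 partners and feedback regulators of receptor tyrosine kinases, 19 were listed and 12 tested, with a median of 0.09, 0 higher, 2 lower and 0 called. Tie1, the endothelial partner of the angiopoietin receptor, had 1.79, 1.14 and 1.12 FPKM in I/R hearts and 2.73, 2.31 and 2.68 FPKM in Sham hearts. All I/R hearts were below all Sham hearts, at -0.61 ± 0.21 (limma, unadjusted p = 0.0207, adjusted p = 0.501). The summed endothelial markers, of which Tie1 is 1 and Kdr the most abundant, overlapped between groups with and without Kdr. Grb2, the adaptor that links such receptors to RAS, was at -0.79 ± 0.29 (unadjusted p = 0.0312 by limma) on 20 reads over the I/R hearts and 33 over the Sham hearts. On those reads limma voom gave -0.54 ± 0.47, with an unadjusted p of 0.276. Of 39 modulators and targets of Notch and Wnt signalling, 27 were listed and 22 tested, with a median of 0.03, 1 higher, 0 lower and 0 called. The higher 1 was Hes1, a Notch target, with 0.797, 0.995 and 1.31 FPKM in I/R hearts and 0.688, 0.141 and 0.377 FPKM in Sham hearts, at 0.55 ± 0.23 (limma, unadjusted p = 0.0496, adjusted p = 0.591). Its groups did not overlap and its mean was above the filter in I/R hearts alone (1.03 FPKM in I/R hearts, 0.402 FPKM in Sham hearts), on 37 reads over the I/R hearts and 16 over the Sham hearts. Beside these counts, 3.43% of all protein-coding genes tested were higher and 1.67% lower at an unadjusted p under 0.05, and their median was 0.02.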

How the data were processed

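RNA of 6 perfused mouse hearts (3 I/R, 3 Sham) was isolated by poly(A) selection, per the labels' protocols. The authors deposited FPKM for each listed transcript. Tools named, per the submitters' processing notes, are HISAT2 2.1.0 (an aligner), HTSeq 0.10.0 (a read counter), fastp 0.23.0 (read trimming) and bcl2fastq 2.19.1.403 (base call conversion). The same notes list 3 build names, mm10, GRCm38 and GRCm39, with no role for each. Annotation, strand setting and unit of counting: not given in the sources used here. Coordinates in the table overlapped those of RefSeq on GRCm38 by at least 50% for 92 of 95 members matched, and are given as GRCm38. Reads that map to a gene and to an overlapping lncRNA may be shared, and 18 of the 56 members tested overlap one.

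Of 21198 rows, 40 repeats were dropped and FPKM were summed per gene. Members were found by name. 1 item the name pattern would take is not reported here. Whole reads were recovered from the FPKM for 11745 of 11745 protein-coding rows and 9413 of 9413 lncRNA rows, within 0.001 of a whole number for lengths from 30 bases. The floor (3 counts) covers counting error only. Each ± is an SE of the limma fit or, where stated, an SD over the hearts of a group. Both reflect the spread between hearts, and the SE uses a variance moderated toward a trend over the features in the fit.

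Features with a mean of at least 0.5 FPKM (5041 protein-coding genes, 7073 lncRNAs) entered 1 fit of log2(FPKM + 1) with limma 3.58.1 in R 4.3.3, with group as the only factor, variances moderated with a trend, two-sided, Benjamini-Hochberg over all 12114 features, adjusted p under 0.05. limma voom on the recovered reads of protein-coding genes, with the recovered totals as library sizes, was an alternative. The exact permutation test of 3 against 3 hearts cannot go below 0.1, and was not used. The log2 scale understates changes of low genes. Figures were drawn with Python 3.11.15 and matplotlib 3.10.9.

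Members and lists were chosen with earlier results of these data known. Genes were named where their unadjusted p was under 0.05, where they were among the 3 most abundant of their role, and from a list of 24 named in any case. Any other member given with values was named after its values were seen. Pathway genes were named at an unadjusted p under 0.05. The replicate numbers are shared between groups, but deviations of same-numbered hearts correlated by 0.153, 0.0283 and 0.0287, so the numbers were not taken as pairs. Alternatives were other pseudocounts, filters and scalings, 1 transcript per gene, protein-coding genes alone, no variance trend, a replicate block and each heart left out.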

Additional observations from a re-analysis of the deposited data

How the results depend on the processing

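No feature was called in any of the 17 settings run. The 4 members at an unadjusted p under 0.05 became 2 with a filter of 2 FPKM (Fzd1 and Bmp2), 7 in a fit of protein-coding genes alone (Dll4, Fzd2 and Fzd8 were added) and 2 to 5 with 1 heart left out, and the cause was not tested, except that the stricter filter leaves out Areg. Without I/R replicate 2 or without Sham replicate 1 they were Areg and Fzd1 alone. The median log2 difference of receptors (0.06) was 0.13 with the filter of 2 FPKM and 0.0093 to 0.12 with 1 heart left out, lowest without I/R replicate 1. That of ligands (0.09) was 0.045 to 0.16 with 1 heart left out, lowest without I/R replicate 2.

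Of 441 values of single genes under alternatives, 419 kept their sign and side of the threshold of adjusted p, and 22 turned sign, all in genes that differed by 0.15 or less with every heart in. Tgfb2 was at 0.031 and 0.0080 with pseudocounts of 0.1 and 0.5. Median-of-ratios scaling put Igfbp6 at -0.032 and Tgfb3 at -0.0024. On recovered reads Acvr1 was at -0.22 and Igfbp3 at 0.0058. With 1 heart left out the values ran from -0.20 to 0.11 for Tgfb2, -0.16 to 0.14 for Igfbp6, -0.12 to 0.16 for Tgfb3, -0.12 to 0.32 for Acvr1, -0.18 to 0.22 for Igfbp3, -0.014 to 0.14 for Notch3, -0.039 to 0.24 for Pdgfrl, -0.040 to 0.14 for Fgf16 and -0.13 to 0.039 for Notch1.

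The replicate block, which treats same-numbered hearts as a pair, gave 0 called features, the same 4 members at an unadjusted p under 0.05 and medians of 0.09 for ligands and 0.06 for receptors. It changed no call. Depth limits the low members: 5 of the 56 tested rest on at most 60 reads over the 6 hearts, Areg among them. Without a filter, which admits all 96 members, the 4 at an unadjusted p under 0.05 were Areg, Fzd1, Bmp2 and Fgfrl1, the last on 3 reads in all.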

Other observations

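Igfbp3 was listed with 2 transcripts, and the minor transcript, chosen after its values were seen, had 9, 9 and 8 reads in I/R hearts and 0, 0 and 2 reads in Sham hearts. It is 1709 bases long and held 1.33% of the gene's FPKM. The main transcript of 2421 bases had 476, 635 and 354 reads in I/R hearts and 542, 463 and 611 reads in Sham hearts, and the groups overlapped. Transcripts of 1 gene were not tested one by one here, and how reads were divided between them was not stated in the labels.

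Several members rest on short listed transcripts, which weigh heavily in a sum of FPKM. Of the 120 transcript rows of the members, 21 were under 1000 bases, and 18 of the 96 members had more than 1 row. For Pdgfra, with 4 rows, 62.9% of the FPKM came from a transcript of 615 bases.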
